A study of Homo sapiens with 9 samples.

Results

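BHLHE40, BHLHE41 and 8 circadian genes, PER1, PER2, PER3, CRY1, CRY2, NR1D1, NR1D2 and DBP, were followed in HEK293T cells treated with a fluorogenic RNA ligand or its reactive derivative. The 10 genes, of 57500 in the count tables, were matched by symbol and then by gene ID, and all 10 passed the filter on low counts in every comparison. BHLHE40 and BHLHE41 were chosen from their lower levels with MsOc3HBC than with DMSO in these same libraries, so their values are given as a description without a p-value. The other 8 were added as members of the same circuit, and their tests carry adjusted p-values over all genes. HEK293T is an established human embryonic kidney line. Cells received 10 µM HBC530, 10 µM MsOc3HBC or the vehicle DMSO for 5 h, with 3 replicates per treatment and 9 libraries of poly(A)-selected RNA in all. HBC530 binds its RNA aptamer without a covalent bond, and MsOc3HBC is a derivative of the same dye with a reactive mesylate on a linker. The libraries of each ligand were compared with DMSO and with each other to ask how far endogenous transcripts differed. Only 1 cell line, 1 dose and 1 time point were sampled, and the labels give no time of day and no synchronization of the cultures.

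The mammalian clock is a transcriptional feedback loop. CLOCK and BMAL1 bind E-boxes and activate the PER and CRY genes, whose proteins return to the nucleus and inhibit that pair. NR1D1 and NR1D2, also known as REV-ERBα and REV-ERBβ, repress BMAL1, and DBP carries the rhythm to output genes through D-boxes. BHLHE40 and BHLHE41, also known as DEC1 and DEC2, are bHLH-Orange repressors that occupy E-boxes themselves, and both also respond to serum, hypoxia and other signals outside the clock.

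CLOCK and BMAL1 act through E-boxes, so the promoter windows that hold one are shown. Windows of 300 bases (250 before the start of transcription and 50 after) were taken from RefSeq on GRCh38.p14, where the 10 genes have 13 windows because PER3, NR1D2 and CRY2 have more than one. Both strands were searched for the E-box CACGTG and the D-box TTANGTAA, and the matches are in capitals in the windows below, which read 5′ to 3′ along the gene.
BHLHE40, chr3:4979187-4979486, plus strand: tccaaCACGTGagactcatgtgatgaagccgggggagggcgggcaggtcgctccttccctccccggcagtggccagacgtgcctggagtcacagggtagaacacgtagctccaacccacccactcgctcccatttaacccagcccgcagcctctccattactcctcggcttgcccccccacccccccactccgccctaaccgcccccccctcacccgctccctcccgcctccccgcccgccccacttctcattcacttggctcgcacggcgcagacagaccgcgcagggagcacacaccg
BHLHE41, chr12:26124988-26125287, minus strand: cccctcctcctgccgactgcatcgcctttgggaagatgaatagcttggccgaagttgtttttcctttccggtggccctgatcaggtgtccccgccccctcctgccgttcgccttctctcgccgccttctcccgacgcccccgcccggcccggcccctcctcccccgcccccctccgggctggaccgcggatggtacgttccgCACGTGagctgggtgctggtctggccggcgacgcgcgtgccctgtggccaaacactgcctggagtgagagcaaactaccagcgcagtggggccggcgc
PER1, chr17:8152355-8152654, minus strand: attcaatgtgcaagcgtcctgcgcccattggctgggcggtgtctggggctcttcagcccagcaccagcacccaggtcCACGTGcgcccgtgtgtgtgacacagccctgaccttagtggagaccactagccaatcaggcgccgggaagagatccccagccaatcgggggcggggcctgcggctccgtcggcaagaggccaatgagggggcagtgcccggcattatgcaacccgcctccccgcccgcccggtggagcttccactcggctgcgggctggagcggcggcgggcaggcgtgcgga
NR1D2, chr3:23945871-23946170, plus strand: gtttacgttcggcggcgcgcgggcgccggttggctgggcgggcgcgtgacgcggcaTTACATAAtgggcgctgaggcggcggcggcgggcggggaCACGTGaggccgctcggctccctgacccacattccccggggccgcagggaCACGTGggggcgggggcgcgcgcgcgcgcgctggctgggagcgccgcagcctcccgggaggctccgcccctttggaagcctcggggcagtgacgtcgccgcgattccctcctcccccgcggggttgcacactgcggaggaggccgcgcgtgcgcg

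The E-box of BHLHE40 began 245 bases before the start and that of BHLHE41 48 bases before it. In PER1 the E-box lay 173 bases before the start. The NR1D2 window shown held E-boxes at 155 and 105 bases before the start with a D-box at 194, and its other window held no E-box. The counted spans of BHLHE40 and PER1 begin upstream of their windows, at 4979116 and 8156506, so these distances hold for the RefSeq starts only. An E-box was thus present in 4 of 10 genes and 4 of 13 windows, and in 7.26% of all 35116 windows of this length. The D-box was found in 3 of 10 genes (PER2, PER3 and NR1D2), 3 of 13 windows and 2.18% of all windows. The letters AGGTCA are the core of the element bound by ROR and REV-ERB receptors. They were found in PER1 and CRY2 (2 of 10 genes, 3 of 13 windows, 13.8% of all windows). The letters ACGTG are the core of the hypoxia response element and a part of every E-box of this spelling. They were found in 8 of 10 genes, 9 of 13 windows and 21.4% of all windows. TGACGTCA, the cyclic AMP response element, was in none of the 10 genes and in 1.85% of all windows. A match is a description of the letters and not evidence of binding.

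The counts on genes per library ranged from 28056929 (MsOc3HBC replicate 3) to 62205366 (DMSO replicate 3). HBC530 replicate 3 had the next fewest, 34963314. The part of depth in the values of the third ligand replicates was not tested. Levels are counts per 1000000 counts of the TMM-scaled library (CPM). Treatments were compared 3 libraries against 3 by the quasi-likelihood test of edgeR, with p-values adjusted by Benjamini-Hochberg over all genes tested, and a gene was called at an adjusted p under 0.05. Of markers of a kidney-derived epithelial line, VIM, KRT8, KRT18, CDH2 and PAX2 were detected in all 9 libraries, at 2.09 CPM or more. INS was at 0, PTPRC, ALB and PECAM1 reached at most 0.110 CPM, and MYOD1 reached 0.417 CPM. A principal component analysis of 18041 genes set the third replicate of each ligand apart, at 36.94 (HBC530) and 48.79 (MsOc3HBC) on the leading axis where the other 7 libraries lay from -20.28 to -4.29, so the values of the 10 genes are also given without them.

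In DMSO the 10 genes spanned a wide range of levels per exonic length. BHLHE40 was the most abundant at 15.2 ± 0.945 RPKM (mean ± SD, n = 3), that is CPM per kilobase of exon. PER1 (8.86 ± 1.13 RPKM), CRY1 (8.17 ± 0.169) and NR1D2 (7.38 ± 0.850) followed, and the ranges of neighbours in this order overlapped. CRY2 lay below them at 3.78 ± 0.10002 RPKM with no overlap on either side. NR1D1 (2.56 ± 0.373), PER2 (2.15 ± 0.134) and DBP (1.91 ± 0.356) again overlapped their neighbours. BHLHE41 at 1.33 ± 0.0342 RPKM and PER3 at 0.319 ± 0.0103 RPKM closed the order without overlap. BHLHE40 was therefore expressed at a higher level than its paralog in every DMSO library. Without the division by length, 7 of 10 ranks changed, and PER1 came first and BHLHE40 second.

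**Figure D1:**
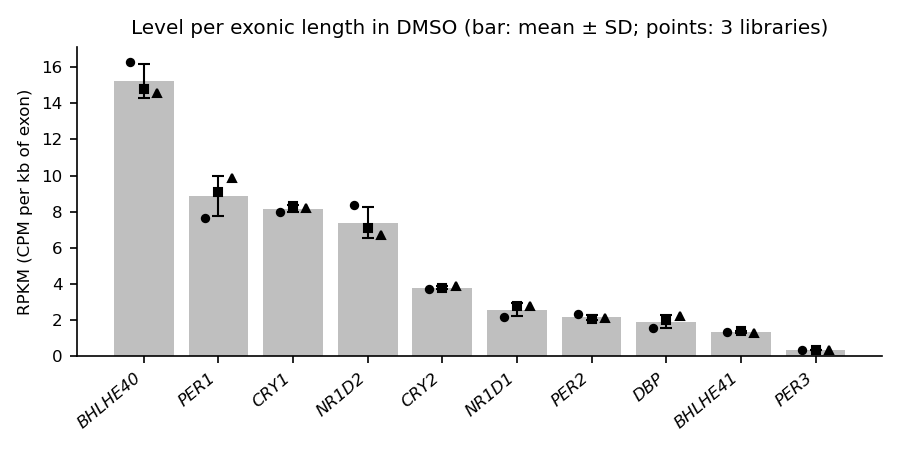
Level per exonic length (RPKM, CPM per kilobase of exon) of the 10 genes in DMSO, with bars for the mean, error bars for the SD and points for the 3 libraries. BHLHE40 is highest at 15.2 RPKM and PER3 lowest at 0.319, and the libraries of PER1, CRY1 and NR1D2 overlap in sequence, as do those of NR1D1, PER2 and DBP.

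BHLHE40 was lower with either ligand than with DMSO in every library. It had 62.6, 56.8 and 55.9 CPM in replicates 1 to 3 of DMSO. With HBC530 it had 31.1, 37.8 and 33.7 CPM, and with MsOc3HBC 30.1, 26.0 and 26.6 CPM. The 6 ligand libraries thus all lay below the 3 DMSO libraries, and the MsOc3HBC libraries all lay below the HBC530 libraries. The means were 58.6 ± 5.77% of the DMSO mean for HBC530 and 47.2 ± 3.83% for MsOc3HBC (SD, n = 3). The log2 fold change against DMSO was -0.77 for HBC530 (SE 0.1003, 95% confidence interval from -0.99 to -0.55) and -1.08 for MsOc3HBC (SE 0.101, from -1.30 to -0.86). Without replicate 3 of the ligand it was -0.75 for HBC530 and -1.06 for MsOc3HBC. BHLHE40 lies on chromosome 3 (4979116 to 4985323, plus strand) and was well covered, with 713 to 3485 counts per library. Both ligands were set against the same DMSO libraries, so these values are not independent of each other. In bulk RNA, a lower level in every cell and a loss from some of the cells cannot be told apart.

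BHLHE41, the paralog with the E-box nearest to its start, was also lower with either ligand. It had 5.28, 5.34 and 5.08 CPM with DMSO and 2.65, 2.54 and 2.17 CPM with MsOc3HBC. With HBC530 it had 3.18, 3.63 and 1.79 CPM. The DMSO libraries lay close together and above all others, whereas replicate 3 of HBC530, which stands apart, was the lowest of the 9 libraries. The means were 54.8 ± 18.3% of the DMSO mean for HBC530 and 46.8 ± 4.84% for MsOc3HBC (SD, n = 3). The log2 fold change was -0.83 for HBC530 (SE 0.197, from -1.27 to -0.39) and -1.08 for MsOc3HBC (SE 0.130, from -1.36 to -0.79). Without replicate 3 of HBC530 the former shrank to -0.61 (SE 0.108, from -0.85 to -0.37), and without replicate 3 of MsOc3HBC the latter was -1.01. BHLHE41 lies on chromosome 12 (26120026 to 26125127, minus strand) and had 58 to 320 counts per library.

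**Figure D2:**
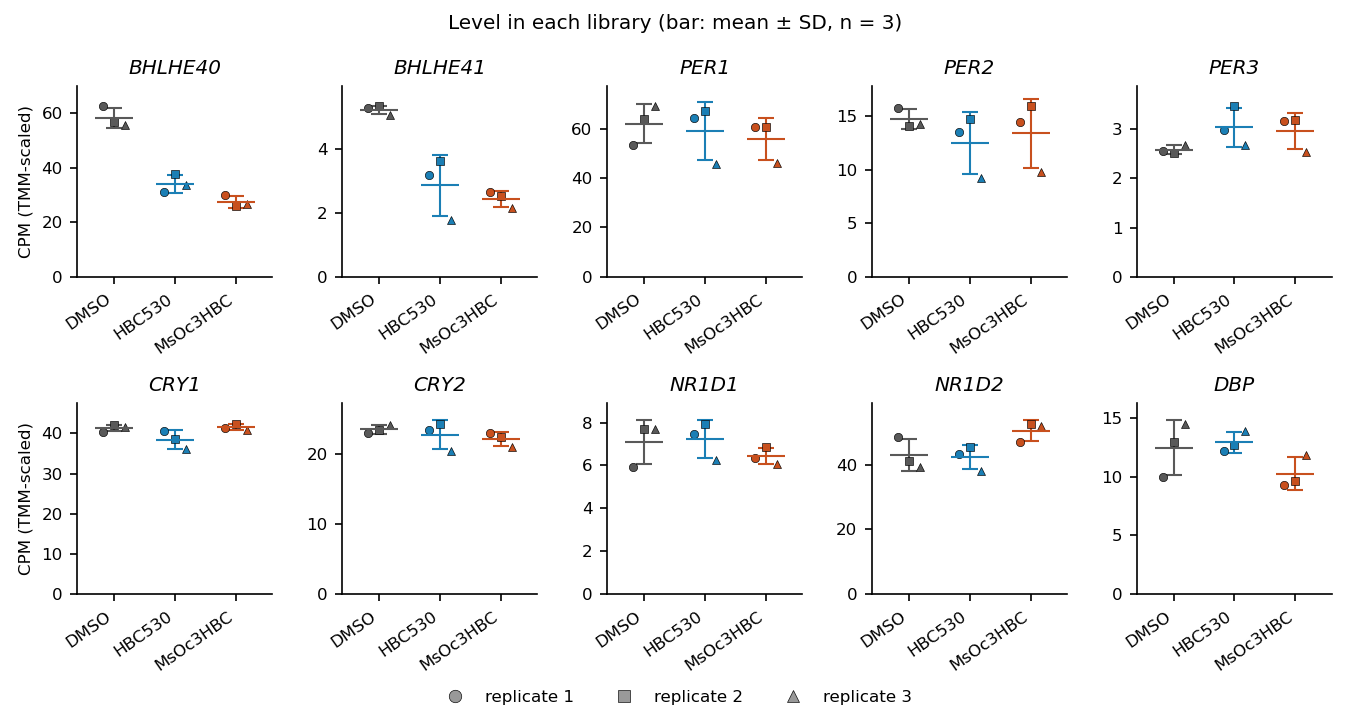
Level of each gene in each of the 9 libraries (TMM-scaled CPM on a linear axis from 0), with the horizontal bar for the mean and error bars for the SD of the 3 replicates, whose numbers are given by the symbol. BHLHE40 goes from a mean of 58.4 CPM in DMSO to 34.2 with HBC530 and 27.6 with MsOc3HBC, and BHLHE41 from 5.24 to 2.87 and 2.45, while the ligand libraries of the other 8 genes overlap those of DMSO.

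Of the 10 genes, 2 were called for MsOc3HBC against DMSO, BHLHE40 and BHLHE41, where 0.154% of 17514 genes were called. That contrast chose them, so nothing is read from the count, which was 1 (BHLHE40) without DMSO replicate 1. For HBC530, set against the same DMSO libraries, 0 of 10 were called by edgeR, where 0.017% of 17684 genes were. Libraries of the ligand and of DMSO did not overlap for 2 of 10 genes with HBC530 (13.9% of all genes tested) and for 2 of 10 with MsOc3HBC (18.4%), again the pair that the choice fixed. The median log2 fold change of the 10 genes was -0.06 for HBC530 and -0.13 for MsOc3HBC, beside 0.005 and 0.01 over all genes tested.

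The PER genes encode the core inhibitors of CLOCK and BMAL1, and PER1 and PER2 are also early responders to cyclic AMP and glucocorticoids. PER1 had 53.4, 63.8 and 68.9 CPM with DMSO, 64.4, 67.0 and 45.5 CPM with HBC530 and 60.7, 60.6 and 45.9 CPM with MsOc3HBC. The ligand libraries overlapped the DMSO libraries, and the lowest value with each ligand was that of replicate 3. Its log2 fold change was -0.07 for HBC530 (SE 0.148, from -0.40 to 0.26, adjusted p = 0.895, edgeR's quasi-likelihood test) and -0.15 for MsOc3HBC (SE 0.132, from -0.44 to 0.14, adjusted p = 0.698). PER2 followed the same course, with 15.8, 14.1 and 14.3 CPM with DMSO, 13.6, 14.8 and 9.25 with HBC530 and 14.5, 15.9 and 9.82 with MsOc3HBC. In replicate 3 of the ligands PER2 lay 0.62 (HBC530) and 0.63 (MsOc3HBC) below the mean of the other replicates on the log2 scale, and PER1 lay 0.53 and 0.40 below it. DMSO replicate 3 showed no such gap, with PER1 0.23 above the mean of the other DMSO libraries and PER2 0.06 below it. Low values in replicate 3 were not limited to these genes. Within a treatment, replicate 3 was the lowest library for 8 of the 10 genes with HBC530, 7 with MsOc3HBC and 3 with DMSO. The same share over all genes was not computed, so these counts are not read as a trait of the 10 genes.

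Without replicate 3 of the ligand, PER2 lay nearer to DMSO with either ligand, and PER1 did so with MsOc3HBC. PER1 with HBC530 changed sign and did not come nearer, and PER3 lay farther from DMSO with either ligand. The log2 fold change of PER1 was then 0.09 for HBC530 and -0.03 for MsOc3HBC, and that of PER2 -0.05 and 0.05. With all libraries PER2 stood at -0.23 (SE 0.153, adjusted p = 0.751, edgeR) and -0.12 (SE 0.154, adjusted p = 0.796). PER3, the scarcest of the 10, had 2.55, 2.52 and 2.68 CPM with DMSO, 2.97, 3.46 and 2.67 with HBC530 and 3.16, 3.18 and 2.54 with MsOc3HBC. Its ligand libraries were higher in replicates 1 and 2 and within the DMSO range in replicate 3. The log2 fold change of PER3 was 0.24 (SE 0.135, from -0.06 to 0.54, adjusted p = 0.751) and 0.21 (SE 0.143, from -0.10 to 0.53, adjusted p = 0.602). PER3 without replicate 3 of the ligand stood at 0.32 for HBC530 (from 0.05 to 0.59, adjusted p = 0.935, edgeR) and at 0.30 for MsOc3HBC (from 0.02 to 0.57, adjusted p = 0.314), intervals above 0 that did not pass the adjustment.

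**Figure D3:**
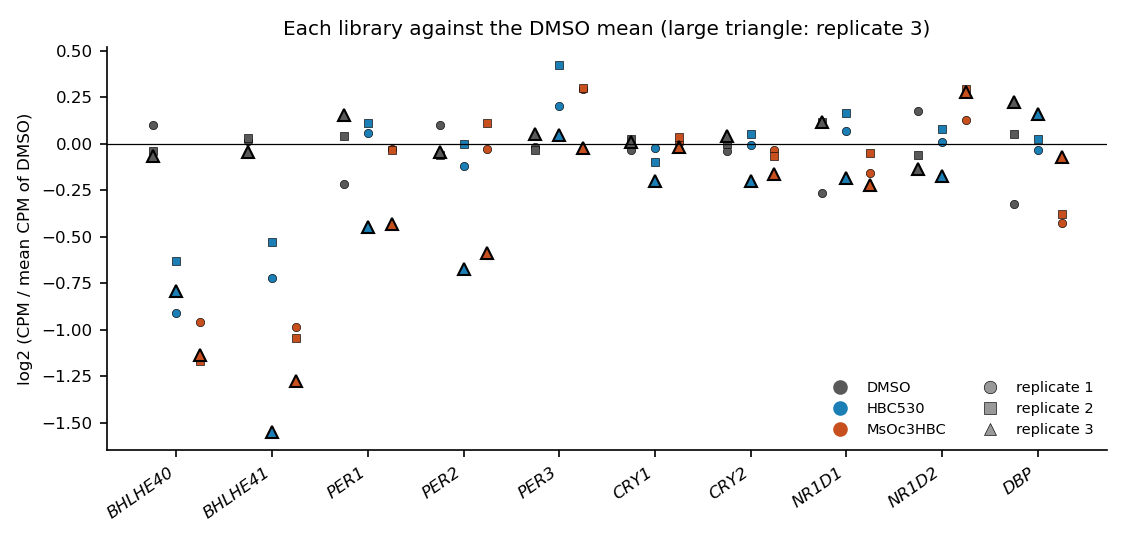
Level of each gene in each library relative to the mean of the 3 DMSO libraries, as log2 of the CPM ratio, with color for the treatment, symbol for the replicate and large outlined triangles for replicate 3. The ligand libraries of BHLHE40 and BHLHE41 all lie below the DMSO libraries, and replicate 3 of either ligand lies 0.40 to 0.63 below its companions for PER1 and PER2.

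CRY1 and CRY2 encode direct repressors of CLOCK and BMAL1, and their libraries lay close together. CRY1 had 40.4, 42.1 and 41.6 CPM with DMSO, 40.6, 38.6 and 36.0 with HBC530 and 41.4, 42.5 and 40.9 with MsOc3HBC. The MsOc3HBC libraries lay on the DMSO libraries, and the HBC530 libraries reached lower. Its log2 fold change was -0.10 for HBC530 (SE 0.0875, from -0.30 to 0.09, adjusted p = 0.755, edgeR) and 0.01 for MsOc3HBC (SE 0.0866, from -0.18 to 0.20, adjusted p = 0.976). CRY2 had 22.9, 23.4 and 24.1 CPM with DMSO and stayed between 20.4 and 24.3 CPM in the 6 ligand libraries. Its log2 fold changes were -0.05 (SE 0.0971, adjusted p = 0.895) and -0.08 (SE 0.0926, adjusted p = 0.770). Leaving out replicate 3 of the ligand gave CRY1 at -0.06 for HBC530 and 0.02 for MsOc3HBC, and CRY2 at 0.03 and -0.05.

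The REV-ERB receptors are heme-binding nuclear receptors that repress BMAL1. NR1D1 had 5.91, 7.70 and 7.71 CPM with DMSO, between 6.25 and 7.96 with HBC530 and between 6.09 and 6.86 with MsOc3HBC, all within or close to the DMSO range. Its log2 fold changes were 0.03 (SE 0.138, adjusted p = 0.962, edgeR) and -0.14 (SE 0.132, adjusted p = 0.723). NR1D2, the more abundant per length in DMSO, had 48.6, 41.2 and 39.2 CPM with DMSO and 43.2, 45.4 and 38.1 with HBC530. With MsOc3HBC it had 46.9, 52.7 and 52.0 CPM, of which replicates 2 and 3 exceeded every DMSO library. The log2 fold change of NR1D2 was -0.02 for HBC530 (SE 0.109, adjusted p = 0.962) and 0.24 for MsOc3HBC (SE 0.106, from 0.004 to 0.47, unadjusted p = 0.0465, adjusted p = 0.454). Without the third ligand library NR1D1 stood at 0.12 and -0.11, and NR1D2 at 0.05 for HBC530 and 0.22 for MsOc3HBC (from -0.003 to 0.44, adjusted p = 0.3501, edgeR).

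DBP, the bZIP activator of D-box genes and a well-known E-box target, varied among the DMSO libraries. It had 9.95, 12.9 and 14.5 CPM with DMSO, 12.2, 12.7 and 13.9 with HBC530 and 9.29, 9.61 and 11.9 with MsOc3HBC. The spread of DMSO covered all HBC530 libraries, and 2 of 3 MsOc3HBC libraries lay below it. The log2 fold change was 0.05 for HBC530 (SE 0.138, adjusted p = 0.929, edgeR) and -0.29 for MsOc3HBC (SE 0.153, from -0.63 to 0.04, adjusted p = 0.509). The latter value depended on single libraries. It was -0.41 without MsOc3HBC replicate 3 (from -0.72 to -0.09, adjusted p = 0.256), -0.43 without DMSO replicate 1 (from -0.74 to -0.12, adjusted p = 0.364) and -0.16 without DMSO replicate 3 (from -0.52 to 0.19, adjusted p = 0.841). For HBC530, DBP stood at -0.006 without replicate 3.

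Of the 8 genes other than BHLHE40 and BHLHE41, 0 were called against DMSO with either ligand by edgeR, DESeq2 or limma-voom. At an unadjusted p under 0.05, 0 of 8 passed for HBC530, beside 5.07% of all genes, and 1 of 8, NR1D2, for MsOc3HBC, beside 10.9%. With all libraries, the 95% interval lay inside a log2 fold change of ±1 for 8 of 8 genes and inside ±0.5 for 6 of 8 with either ligand. Changes of a size like that of BHLHE40 with MsOc3HBC were therefore outside the interval for each of them.

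**Figure D4:**
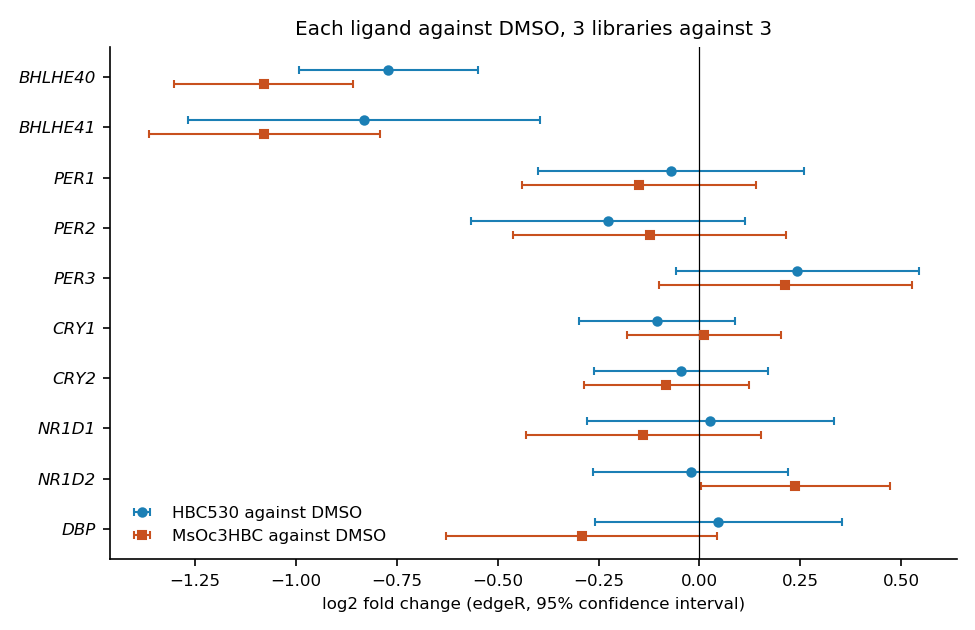
Log2 fold change of the 10 genes for HBC530 (circles) and MsOc3HBC (squares) against DMSO, with 95% confidence intervals of the edgeR fit. BHLHE40 and BHLHE41 lie between -1.08 and -0.77, and the other 8 genes lie between -0.29 and 0.24.

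HBC530 and MsOc3HBC share the dye and were given at the same dose and time, so they can be compared directly. In the fit of 3 against 3 libraries, edgeR called 0 of the 8 genes that the choice did not use, and 0% of all 17397 genes tested (25 genes by DESeq2, 0 by limma-voom). DESeq2 and limma-voom also called 0 of the 8. At an unadjusted p under 0.05 there were 2 of 8 (NR1D2 and DBP), beside 7.32% of all genes. Libraries of the ligands did not overlap for 3 of 8, CRY1, NR1D2 and DBP, beside 15.5% of all genes. For BHLHE40 the log2 difference of MsOc3HBC from HBC530 was -0.31 (SE 0.109, from -0.56 to -0.06). For BHLHE41 it was -0.24 (SE 0.245, from -0.80 to 0.33). The MsOc3HBC libraries from which this pair was chosen enter this comparison too, so both values and their intervals are a description.

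Ligand libraries with the same replicate number are called pairs here, and a fit with the replicate as a block is given for this comparison. The labels do not state a pairing, and the correlations given under the processing do not establish one. The block fit called 2 of the 8 genes, beside 11.4% of all genes. NR1D2 rose by 0.26 on the log2 scale with MsOc3HBC (SE 0.0640, from 0.12 to 0.39, adjusted p = 0.0225, edgeR with the replicate block) against an adjusted p of 0.643 without the block. It was higher with MsOc3HBC in 3 of 3 pairs. DBP fell by 0.35 (SE 0.0760, from -0.51 to -0.18, adjusted p = 0.0127 with the block, 0.643 without) and was lower in 3 of 3 pairs. BHLHE40, described without a p, stood at -0.31 (SE 0.0817, from -0.49 to -0.13) and was lower in 3 of 3 pairs. BHLHE41 stood at -0.25 (SE 0.152, from -0.58 to 0.08) in the same fit.

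Of these calls, that of NR1D2 depended on the block once replicate 3 was left out. In the fit without replicate 3 of both ligands and without the block, which called 9.16% of all genes, DBP stayed past the threshold at -0.40 (SE 0.0880, adjusted p = 0.0107, edgeR) and NR1D2 did not, at 0.16 (SE 0.0668, adjusted p = 0.141). With the block added to that fit, an alternative chosen after seeing the data that called 19.5% of all genes, NR1D2 passed at 0.16 (SE 0.0589, adjusted p = 0.0345, edgeR). Without the block and replicate 3, BHLHE40 was at -0.31 and BHLHE41 at -0.40 (SE 0.148, from -0.72 to -0.09). The remaining genes, PER1, PER2, PER3, CRY1, CRY2 and NR1D1, were not called in any of these fits. In the block fit PER1 stood at -0.08 (from -0.19 to 0.04), PER2 at 0.10 (from -0.05 to 0.25), PER3 at -0.03 (from -0.30 to 0.23), CRY1 at 0.11 (from -0.01 to 0.24), CRY2 at -0.04 (from -0.18 to 0.10) and NR1D1 at -0.17 (from -0.36 to 0.02). All 6 intervals lay between -0.36 and 0.25 and included 0.

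**Figure D5:**
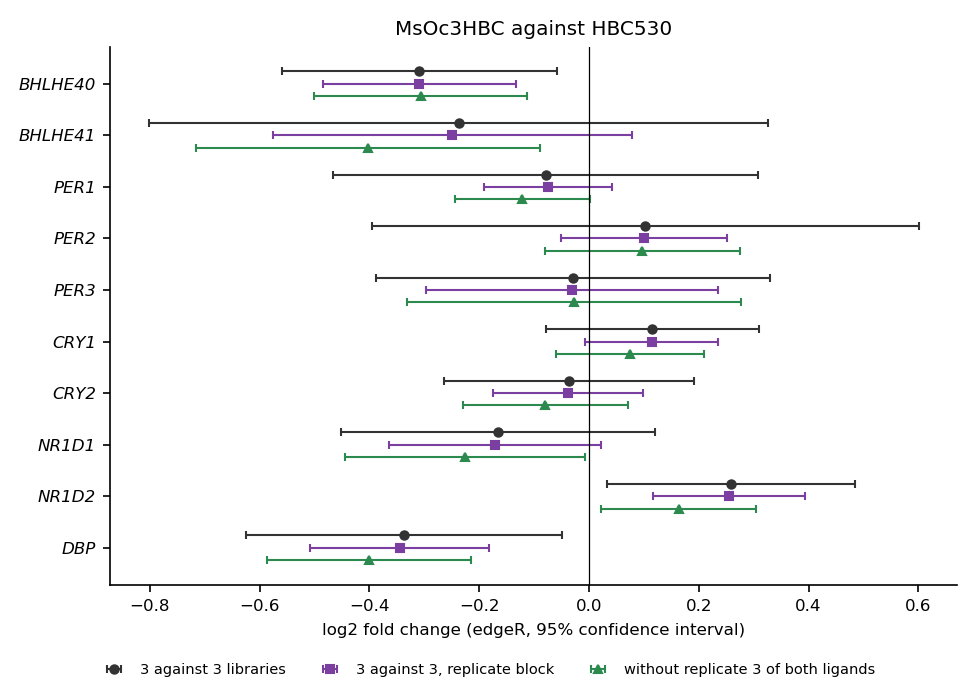
Log2 fold change of MsOc3HBC against HBC530 with 95% confidence intervals, for the fit of all 6 libraries (circles), the fit with the replicate block (squares) and the fit without replicate 3 of both ligands (triangles). BHLHE40 stays near -0.31 in all 3 fits, NR1D2 lies between 0.16 and 0.26, and the interval of DBP stays below 0.

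The other components of the clock were measured alongside. From a list of further clock genes (activators, output factors and regulators of PER and CRY turnover), 17 passed the filter on low counts and were tested. In each of the 3 comparisons 0 of 17 were called by edgeR, DESeq2 or limma-voom. At an unadjusted p under 0.05 there were 1 (RORA) for HBC530 against DMSO, 1 (USP2) for MsOc3HBC against DMSO and 2 (RORA and USP2) between the ligands, beside 5.07, 10.9 and 7.32% of all genes. With the block 2 of 17, again RORA and USP2, were called between the ligands, beside 11.4% of all genes. Libraries did not overlap for 1 of 17 (RORA) with HBC530 against DMSO. They did not overlap for 3 of 17, USP2 among them, with MsOc3HBC against DMSO. Between the ligands it was 3 of 17, RORA among them. Over all genes tested the shares without overlap were 13.9, 18.4 and 15.5%. The median log2 fold change of the list was -0.08, -0.005 and 0.11 in the 3 comparisons, beside 0.005, 0.01 and 0.02 over all genes tested. CSNK1E, the kinase that marks PER proteins for degradation, was the most abundant of the list per length, at 86.2 ± 6.79 RPKM in DMSO.

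RORA, the nuclear receptor that activates BMAL1 where the REV-ERBs repress it, had 3.43, 2.79 and 2.81 CPM with DMSO, 1.98, 2.09 and 2.30 with HBC530 and 3.07, 2.91 and 3.66 with MsOc3HBC. The HBC530 libraries lay below all others. Its log2 fold change was -0.50 for HBC530 (SE 0.142, adjusted p = 0.751, edgeR) and 0.09 for MsOc3HBC (SE 0.152, adjusted p = 0.854). Between the ligands RORA was higher with MsOc3HBC by 0.59 without the block (SE 0.150, adjusted p = 0.643) and by 0.58 with it (SE 0.131, adjusted p = 0.0137). USP2, a deubiquitinase that acts on clock proteins, had 16.1, 14.8 and 13.6 CPM with MsOc3HBC, below the DMSO range of 17.7 to 19.1. Its log2 fold change was -0.32 against DMSO (SE 0.102, adjusted p = 0.329) and -0.30 against HBC530 with the block (SE 0.0730, adjusted p = 0.0206). GSK3B (-0.29 for HBC530, SE 0.133, adjusted p = 0.751) and NPAS2 (-0.25 for MsOc3HBC, SE 0.149, adjusted p = 0.554) were next by p and were not called. When replicate 3 of the ligand was left out, RORA stood at -0.54 for HBC530 (adjusted p = 0.718, edgeR) and USP2 at -0.26 for MsOc3HBC (adjusted p = 0.229). Among the direct partners, CLOCK and BMAL1 had log2 fold changes from -0.14 to 0.06 against DMSO.

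Relatives of BHLHE40 and BHLHE41 were not called against DMSO with either ligand. Of 14 HES, HEY and ID genes, which encode bHLH-Orange repressors and the ID proteins that sequester bHLH factors, 12 were tested (HES5 and HELT were too low). In each comparison 0 of 12 were called by edgeR, DESeq2 or limma-voom, and at an unadjusted p under 0.05 there were 1 (ID1), 0 and 0, beside 5.07, 10.9 and 7.32% of all genes. The medians were 0.11, -0.11 and -0.15, beside the medians over all genes given above. HES4, the most abundant per length at 74.6 ± 17.4 RPKM in DMSO, had 61.0, 94.1 and 95.3 CPM there. Against DMSO its log2 fold change was 0.30 with HBC530 (SE 0.172, adjusted p = 0.751), and ID1 stood at 0.26 (SE 0.109, adjusted p = 0.751). With MsOc3HBC the smallest p belonged to HEY1 (-0.19, SE 0.0914, adjusted p = 0.486) and HES1 (-0.25, SE 0.138, adjusted p = 0.524). Without replicate 3 of MsOc3HBC, HEY1 stood at -0.25 (adjusted p = 0.128, edgeR) and HES1 at -0.42 (adjusted p = 0.111), and without replicate 3 of HBC530, HES4 stood at 0.15 and ID1 at 0.18.

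Between the ligands all 12 tested bHLH genes had a negative log2 fold change, where the median over all genes tested was 0.02. The share of all genes below 0 was not computed, so nothing is read from this count. With the block 3 of 12 were called, beside 11.4% of all genes. These were ID1 (-0.37, SE 0.0912, adjusted p = 0.0206, edgeR), HES6 (-0.23, SE 0.0693, adjusted p = 0.0467) and HES4 (-0.23, SE 0.0673, adjusted p = 0.0446). HEYL had the smallest p without the block (-0.24, SE 0.121, adjusted p = 0.693) and was not called with it. ID1 had 10.5, 10.5 and 12.6 CPM with HBC530 and 7.155, 7.81 and 11.7 with MsOc3HBC, so that replicate 3 of MsOc3HBC lay within the HBC530 range. Without replicate 3 of both ligands ID1 stood at -0.49 (adjusted p = 0.00524, edgeR), HES6 at -0.24 (adjusted p = 0.0747) and HES4 at -0.12 (adjusted p = 0.245).

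The spans of 9 of the 10 genes overlap another gene, and CRY2 overlaps none. Where exonic bases are shared, counts can hold reads of the overlapping gene. The strand setting and the handling of shared bases are not given in the sources used here. Of 11 overlapping genes, 7 had a mean of at most 7.33 counts per library, among them BHLHE40-AS1, which shares 4 exonic bases with BHLHE40 (6.67 counts beside 2018), and UTS2, which shares 868 bases with PER3 (4.22 counts beside 140.2). SSPN shares 162 bases with BHLHE41 on the opposite strand, or 4.10% of the exonic length of BHLHE41, at 92.3 counts beside 181. SSPN itself had log2 fold changes of 0.05 (SE 0.178) for HBC530 and -0.02 (SE 0.170) for MsOc3HBC against DMSO. THRA shares 263 bases (9.49%) with NR1D1 and was far more abundant, with 2913 counts beside 344, and its log2 fold change was -0.10 (SE 0.0866) and -0.28 (SE 0.103, adjusted p = 0.379, edgeR). SPHK2 shares 661 bases (10.1%) with DBP, at 1021 counts beside 581, and stood at -0.14 (SE 0.0932, adjusted p = 0.781) between the ligands, where DBP fell. NKIRAS1 overlaps NR1D2 in introns only, with 0 shared exonic bases. The part of these genes in the values of NR1D1 and DBP was not tested.

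The genes whose pattern over the 9 libraries was most like BHLHE40 were SPRY1 (Pearson's r = 0.977 of log2 CPM), PPP1R3G (0.973), CXCR4 (0.951), INSIG1 (0.949) and NOG (0.946), out of 13613 genes with a mean of at least 1 CPM. SPRY1, an inhibitor of receptor tyrosine kinase signaling, went from 19.0 CPM in DMSO to 12.5 with HBC530 and 9.49 with MsOc3HBC, and PPP1R3G, a glycogen-targeting phosphatase subunit, from 2.20 to 1.10 and 0.724 CPM. Within treatments, after subtraction of each group mean, r was 0.507 for SPRY1, 0.312 for PPP1R3G and -0.511 for NOG, below the values over all libraries. For BHLHE41 the list was SHISA2 (0.985), PFKFB3 (0.981), METAP1 (0.971), ARRDC4 (0.967) and CHRNA7 (0.965). SHISA2, which retains WNT and FGF receptors in the endoplasmic reticulum, went from 15.6 to 9.26 and 8.96 CPM, and PFKFB3, an activator of glycolysis, from 105 to 82.7 and 76.9. Their r within treatments was 0.964 and 0.926. BHLHE41 in HBC530 replicate 3 lay 0.93 below the mean of the other HBC530 libraries on the log2 scale. The same gap was 0.26 with MsOc3HBC and 0.06 with DMSO, so 1 library weighs heavily in these values of r. METAP1 had log2 fold changes of only -0.09 and -0.11, so that a high r did not mean a large difference. These are descriptions over libraries that share their treatment groups, and carry no p.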

How the data were processed

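Poly(A) RNA of HEK293T cells was sequenced as paired-end reads in 9 libraries, 3 per treatment. After trimming (Trimmomatic 0.36) and alignment to GRCh38 (STAR 2.5.2b), the authors deposited raw counts of unique hits per gene from featureCounts (Subread 1.5.2). The signal columns of the 2 deposited tables hold counts that the authors divided by DESeq2 size factors. They were read for gene names and as a check only. The same tables hold fold changes and p-values of each ligand against DMSO, which were not used. The annotation release, strand setting and treatment of shared bases are not given in the sources used here.

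The members and the gene lists were chosen with earlier results of these data known. Raw counts were filtered with filterByExpr and TMM-scaled, and each pair of treatments was fitted with edgeR 4.0.16 (R 4.3.3) by the quasi-likelihood F test with Benjamini-Hochberg adjustment over all genes of the comparison. Standard errors and 95% intervals come from that fit. RPKM is CPM per kilobase of the exonic length in the count files. Alternatives were DESeq2 1.42.0, limma-voom (limma 3.58.1), other scalings and filters, all 9 libraries in 1 fit, a replicate block and each library left out, and the fits were tested on simulated data. Labels call the samples replicates, and the methods call them biological ones without naming separate cultures, so p-values measure the spread between these samples. Deviations of libraries with the same number correlated across genes at 0.167, 0.368 and 0.433 between MsOc3HBC and HBC530, all over 0.1. Different numbers gave -0.472 to 0.297. MsOc3HBC replicate 2 with HBC530 replicate 1 gave the 0.297, above the 0.167 of the first replicates. The third replicate of each ligand stands apart, so these correlations do not establish a pairing. Between a ligand and DMSO the same number gave -0.111 to 0.172, so blocked values are printed beside results only between the ligands. Named were all 10 genes, every list gene called (also with the block between ligands), the 2 smallest p of each list and comparison, the most abundant of each list per length, overlapping genes, and the 5 genes most like BHLHE40 and BHLHE41 over the libraries. CLOCK and BMAL1 were named outside this rule, after their values were seen.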

Additional observations from a re-analysis of the deposited data

Results flagged for a closer look

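The ligands' effects differed by a direct test, MsOc3HBC against HBC530 with the replicate block (edgeR, adjusted p under 0.05), for NR1D2 (0.26 on the log2 scale) and DBP (-0.35), 2 of the 8 genes that the choice did not use. Among the lists the same was found for RORA (0.58), USP2 (-0.30), HES4 (-0.23), HES6 (-0.23) and ID1 (-0.37). With the block 11.4% of all genes passed, and without it, with all libraries, none of these 7 did. The pairing by replicate number behind the block is not established.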

How the results depend on the processing

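BHLHE40 and BHLHE41 were lower than with DMSO under all 14 alternatives for either ligand. BHLHE40 ranged from -0.85 to -0.71 for HBC530 and from -1.15 to -1.03 for MsOc3HBC, and BHLHE41 from -1.03 to -0.61 and from -1.13 to -1.01. The counts of members that follow include this pair, chosen from these libraries, and are a description. For HBC530, where 0 of 10 genes were called, 1 was called by DESeq2, limma-voom, upper-quartile scaling, the replicate block and all 9 libraries in 1 fit, and 2 without a filter. Leaving out 1 library gave 0 to 1, with 1 only without HBC530 replicate 3. For MsOc3HBC, where 2 were called, 1 was called with all 9 libraries in 1 fit, and 1 to 2 when a library was left out, with 1 only without DMSO replicate 1. Between the ligands 3 members, 2 clock genes and 3 bHLH genes were called with the replicate block, 2, 2 and 2 without replicate 3 of both ligands, and 4, 4 and 5 with both changes together, an alternative chosen after seeing the data. Of all genes, these fits called 11.4, 9.16 and 19.5%. Each other alternative called 0 of the members and list genes there. Over all genes, DESeq2 called 25, the fit without a filter 12 and the fit of all 9 libraries 4. Among the members and the lists, the block changed no call against DMSO other than that of BHLHE40 for HBC530. Over all genes tested it gave 16 calls in place of 3 for HBC530 and 149 in place of 27 for MsOc3HBC. The bHLH list had 0 to 1 calls for MsOc3HBC against DMSO when a library was left out, with 1, ID2 at -0.37, only without MsOc3HBC replicate 3.

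Small fold changes turned sign when 1 library was left out. For HBC530 against DMSO the ranges were PER1 -0.17 to 0.089, CRY2 -0.099 to 0.029, NR1D1 -0.086 to 0.12, NR1D2 -0.083 to 0.074 and DBP -0.0904 to 0.17. For MsOc3HBC they were PER2 -0.27 to 0.047 and CRY1 -0.0098 to 0.021, with CRY1 at -0.00085 without a filter. Between the ligands they were PER1 -0.23 to 0.043, PER2 -0.065 to 0.28, PER3 -0.103 to 0.078 and CRY2 -0.104 to 0.015. The cause was not tested. BHLHE41 and PER3 had the fewest counts, 58 and 68 in their lowest library, and the part of depth in their spread was not tested.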
